A study of Homo sapiens with 28 samples.

Results

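The 8 genes described here encode immediate-early transcription factors and regulators: JUN (ENSG00000177606), JUNB (ENSG00000171223), JUND (ENSG00000130522), FOS (ENSG00000170345), EGR1 (ENSG00000120738), IER2 (ENSG00000160888), IER5 (ENSG00000162783) and KLF10 (ENSG00000155090). They were taken by gene identifier from 24678 genes with at least 1 exonic read, and all 8 had reads. On GRCh38.p14 RefSeq places JUN at chr1:58780791-58784047, IER5 at chr1:181088700-181092900, JUND at chr19:18279694-18281622, JUNB at chr19:12791486-12793315, IER2 at chr19:13150411-13154911, EGR1 at chr5:138465479-138469303 and FOS at chr14:75278828-75282230. The set was chosen by name with earlier results of these data in view, the levels in labelled against unlabelled libraries among them, so that contrast is given below as a description without a test.

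Immediate-early genes are transcribed within minutes of a growth factor or stress signal, without the need for new protein, and their mRNAs are among the fastest decaying in a cell. JUN, JUNB and JUND are the Jun subunits of AP-1, a dimeric transcription factor in which they pair with FOS or with each other, whereas EGR1 and KLF10 are zinc-finger factors and IER2 and IER5 are small nuclear regulators. In growing cells JUND is known as the more steadily expressed Jun protein and JUN as the more signal-dependent one.

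The data came from nucleotide-recoding RNA sequencing of total RNA from HEK293T, a long-established cell line of human embryonic kidney origin. Labelled cells received 4-thiouridine (s4U) at 100 uM for 2 h, and unlabelled cells received none. A chemistry then turned the s4U in the RNA into a base read as C, so that a read with a T-to-C mismatch is likely to come from RNA made during labelling. Each of 3 chemistries (NaIO4 with TFEA at pH 5.2, iodoacetamide, and OsO4 with NH3) was applied under the handlings that the labels name drop-out and improved. The series' design sets common protocols against ones intended to limit the loss of labelled RNA and of converted reads. There were 2 labelled libraries and 1 unlabelled library for each chemistry and handling, 18 in all. Libraries held 1935777 to 9962345 reads and 836654 to 4604325 exonic reads assigned to a gene. The labels do not say whether the libraries of a group came from separate cultures, so p-values measure the spread between these libraries. The identity of the line was not checked against marker genes, because identifiers other than those above could not be paired with symbols.

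The promoters of JUN and JUND are shown because these were the 2 members with enough reads for the test of converted shares. The sequences are RefSeq's 250 bases upstream of the annotated start on GRCh38.p14, at chr1:58784048-58784297 for JUN and chr19:18281623-18281872 for JUND, both on the minus strand and printed 5′ to 3′ with the start next to the last base. Capitals mark matches to TGACNTCA, the variant cyclic AMP response element, and to TATAA.
JUN: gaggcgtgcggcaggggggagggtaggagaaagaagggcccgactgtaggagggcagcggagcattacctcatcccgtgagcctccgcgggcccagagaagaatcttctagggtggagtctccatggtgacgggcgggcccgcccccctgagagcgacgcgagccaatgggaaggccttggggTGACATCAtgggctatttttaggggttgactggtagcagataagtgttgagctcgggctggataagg
JUND: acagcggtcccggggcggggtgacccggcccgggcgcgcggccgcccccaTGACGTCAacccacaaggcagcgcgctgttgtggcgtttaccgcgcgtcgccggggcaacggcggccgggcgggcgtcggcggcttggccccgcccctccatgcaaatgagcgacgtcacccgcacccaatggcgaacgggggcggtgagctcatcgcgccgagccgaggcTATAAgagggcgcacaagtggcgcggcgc
The JUN window held TGACATCA and the JUND window held TGACGTCA, the full element. TGACNTCA occurred on either strand in 7.09% of 27305 promoter windows of this length, TGACGTCA in 1.77% and TATAA in 19.6%. A TATAA lay 29 to 25 bases before the start of JUND and none was in the JUN window. TGANTCA, the AP-1 site, was in 6.60% of all windows and in none of the 7 windows searched, those of JUN, JUNB, JUND, FOS, EGR1, IER2 and IER5. The CArG box, bound by serum response factor, matched in the EGR1 window at 2 places and in 1.14% of all windows. GGGCGG, the GC box, was in 42.3% of all windows, with 5 matches for JUND, 3 for IER2, 2 for JUN and 1 for FOS. A match is a description of these letters only.

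After 2 h of labelling most JUN reads carried a T-to-C mismatch and most JUND reads did not. The converted share, the percent of a gene's exonic reads that carried 1 or more T-to-C mismatches, was 66.0% ± 7.97 (SD, n = 6) for JUN under drop-out handling and 62.8% ± 6.23 (SD, n = 6) under improved handling. For JUND it was 28.5% ± 4.65 (SD, n = 6) and 29.8% ± 2.57 (SD, n = 6). KLF10 had the highest converted share of the 5 most deeply read members, at 76.9% ± 7.14 and 84.7% ± 6.34 (SD, n = 6 each). The share of the median of 1992 tested genes was 10.5% ± 1.95 and 21.5% ± 2.17 (SD, n = 6 each), below that of JUN and JUND in each of the 12 labelled libraries.

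Single libraries showed the spread behind these means. With the NaIO4 chemistry, the converted share of JUN was 66.3% and 55.6% under drop-out handling and 66.7% and 59.7% under improved handling. With iodoacetamide it was 73.9% and 60.7% against 57.3% and 59.4%, and with the OsO4 chemistry 76.5% and 63.2% against 73.8% and 60.2%. The JUN values of the handlings therefore overlapped in range. For JUND the drop-out libraries ran from 22.7% through a median of 27.7% to 36.4%, and the improved ones from 26.8% through 30.1% to 33.2%. The JUND ranges overlapped as well and lay below every JUN value. A 95% Wilson interval reached at most 6.52 points from the value for JUN and 9.57 points for JUND, which covers counting error only. In the unlabelled libraries the converted share was 1.40% to 3.97% for JUN and 1.85% to 5.57% for JUND.

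**Figure D1:**
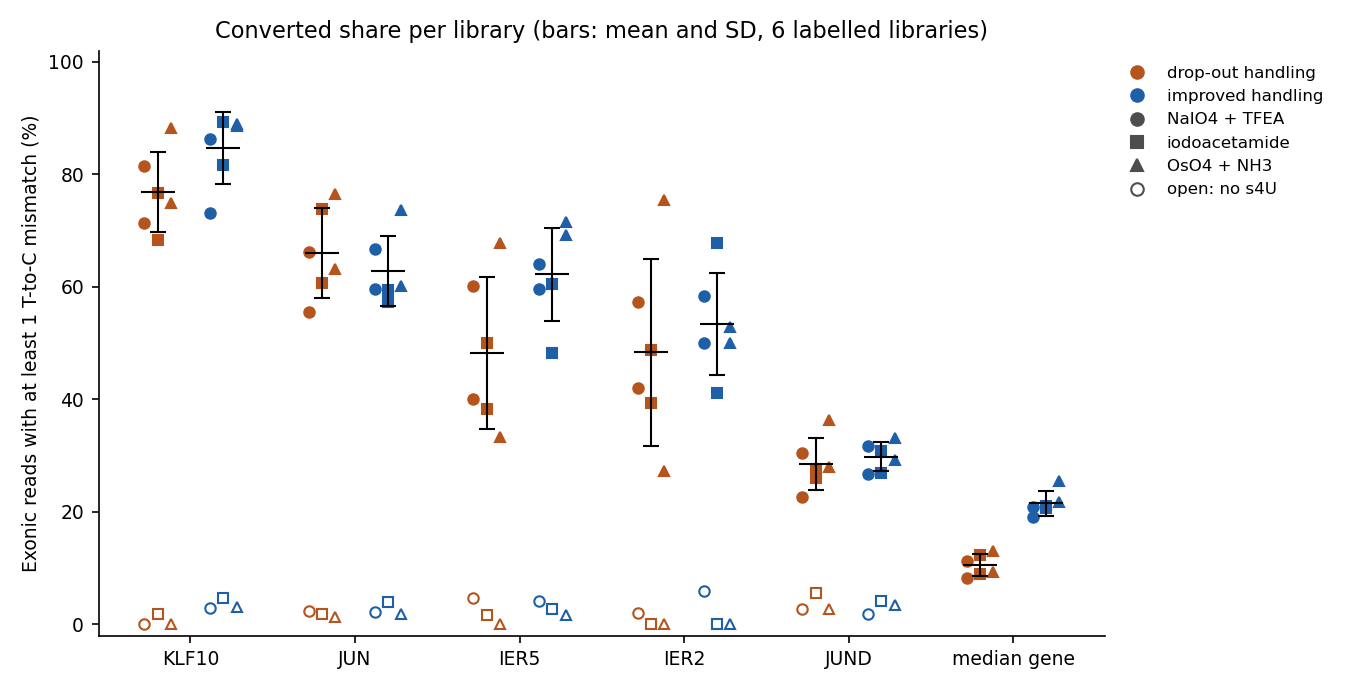
Converted share of exonic reads (%), one point per library, for KLF10, JUN, IER5, IER2, JUND and the median tested gene, with chemistry as marker shape, handling as colour and unlabelled libraries as open points. Black bars are the mean and SD of 6 labelled libraries. JUN stood at 66.0% and 62.8% and JUND at 28.5% and 29.8%, while the median gene stood at 10.5% under drop-out and 21.5% under improved handling.

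The number of mismatches in each read was counted next. Of 2256 JUN reads in the labelled drop-out libraries, 35.9% had no mismatch, 30.0% had 1, 15.0% had 2 and 4.83% had 5 or more. Of 4028 reads in the improved libraries, 35.9% had none, 25.0% had 1, 18.8% had 2 and 6.60% had 5 or more. JUND reads without a mismatch were 72.1% of 1543 under drop-out and 69.9% of 875 under improved handling. KLF10 reads with 5 or more mismatches were 14.6% of 192 and 20.5% of 987.

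The handling comparison asked whether the odds of a converted against an unconverted read of each gene differed between the protocols. It did not test the number of converted reads. Neither JUN nor JUND was called. The log2 odds of a converted read, improved minus drop-out, were -0.18 for JUN (standard error 0.214, 95% interval -0.60 to 0.24, adjusted p = 0.423) and 0.11 for JUND (standard error 0.273, 95% interval -0.43 to 0.64, adjusted p = 0.711) in edgeR's quasi-likelihood test. A p that misses the threshold does not show that the share stayed the same. Of the 1992 genes tested, 82% passed an adjusted p of 0.05, all of them higher under improved handling, with a median log2 odds of 1.09 over all genes. So 0 of the 2 members tested were called, and 43 of 1992 genes had log2 odds below 0, JUN among them. By chemistry, JUN stood at 0.16 with the NaIO4 chemistry, -0.51 with iodoacetamide and -0.19 with the OsO4 chemistry, and JUND at 0.22, 0.16 and -0.05. None of these 6 values passed the test (adjusted p = 0.240 to 0.915, edgeR).

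Genes with a like share under drop-out handling were set beside them. Only 10 of the 1992 genes, JUN included, had a drop-out share at or above that of JUN, and 175 at or above that of JUND. The 16 other genes within 5 points of JUN had a median log2 odds of 0.24, from -0.43 to 0.89, and 2 were called higher. The 147 other genes within 5 points of JUND had a median of 0.75, and 94 were called higher. The JUN value of -0.18 lay inside the range of its neighbours in share, and the JUND value of 0.11 lay inside a range of -0.44 to 2.12.

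**Figure D2:**
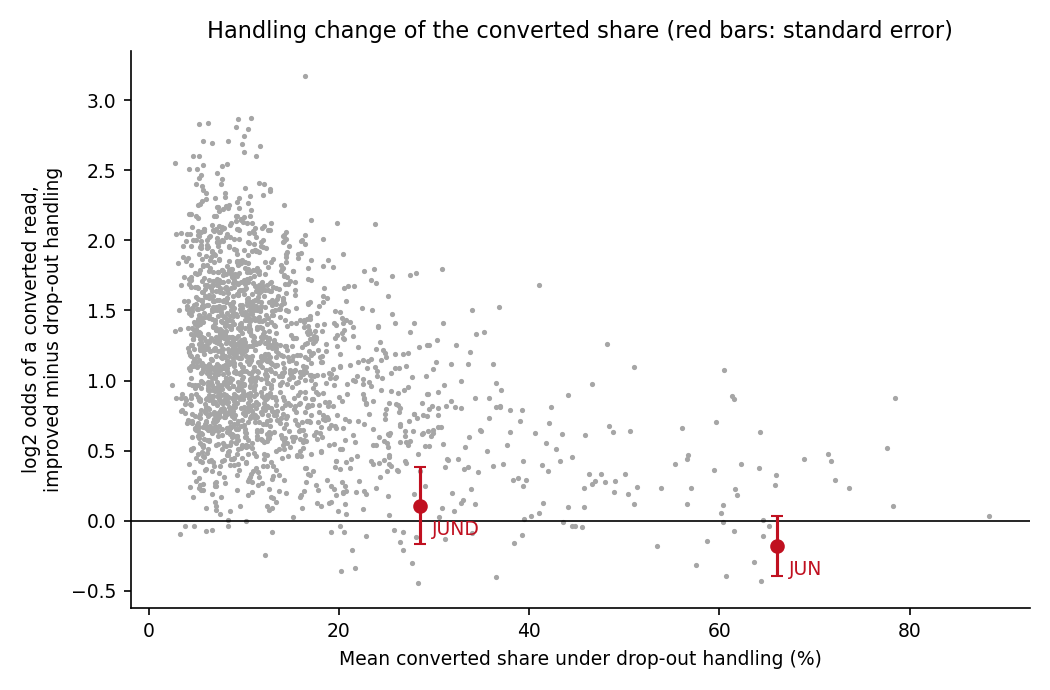
Change in the log2 odds of a converted read, improved minus drop-out handling, against the mean converted share under drop-out handling (%), one grey point for each of 1992 genes, with JUN and JUND in red and their standard errors as bars. JUN (-0.18) and JUND (0.11) lay below the median change of 1.09.

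The share of JUN differed by -3.18 points, improved minus drop-out (two-sided exact permutation p = 0.463 within chemistry), and that of JUND by 1.29 points (exact permutation p = 0.519), while the median gene went from 10.5% to 21.5%. The log2 odds of JUN minus that of the median gene went from 4.06 ± 0.25 to 2.63 ± 0.29 (SD, n = 6 each), and that of JUND from 1.74 ± 0.19 to 0.63 ± 0.21. The differences were -1.43 and -1.12, and for IER2, IER5, KLF10 and JUNB they ran from -1.30 to -0.40. These differences include that of the median gene, were added after it had been seen, and are a description with no test.

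The other members had fewer reads. IER5, a regulator of heat shock and phosphatase signalling, had a converted share of 33.3% to 67.7% (median 45.0%) under drop-out and 48.3% to 71.6% (median 62.3%) under improved handling, on 421 and 443 reads. Its difference of 14.0 points had a two-sided exact permutation p of 0.0556 within chemistry, and the ranges overlapped. Counting only reads with 2 or more mismatches, the difference was 16.6 points (exact permutation p = 0.0370). With the matching unlabelled library subtracted, it was 13.1 points (exact permutation p = 0.0926). With genes of at least 20 reads in each labelled library, the log2 odds of IER5 rose by 0.83 (standard error 0.386, edgeR adjusted p = 0.0479), where 70.6% of 4084 genes were called higher and 0.0245% lower. At that minimum 4 members were tested, and IER2 (0.24, edgeR adjusted p = 0.602), JUN and JUND were not called. Leaving out 1 of 4 libraries (replicate 1 of the drop-out group of any chemistry, or replicate 1 of the improved iodoacetamide group) took the permutation p to between 0.0278 and 0.0463, and leaving out any of the other 8 kept it between 0.0833 and 0.157. Over all 12 the difference was 8.22 to 19.7 points. Minus the median gene it was 2.95 points.

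KLF10, a repressor induced by transforming growth factor beta, had a converted share of 68.4% to 88.2% (median 75.9%) under drop-out and 73.1% to 89.3% (median 87.5%) under improved handling, a difference of 7.79 points (two-sided exact permutation p = 0.0648). Without replicate 2 of the improved NaIO4 group the difference was 9.99 points (exact p = 0.0370), and without replicate 1 of the drop-out OsO4 group it was 10.0 points (exact p = 0.0463). The other 10 such fits gave an exact p of 0.0648 to 0.185, with differences down to 5.59 points. With the matching unlabelled library subtracted the difference was 4.81 points (exact permutation p = 0.287). IER2, a nuclear protein linked to cell motility, ran from 27.3% to 75.5% (median 45.4%) under drop-out and from 41.2% to 67.9% (median 51.5%) under improved handling, a difference of 5.01 points (exact permutation p = 0.565). JUNB, an AP-1 subunit that often opposes JUN, had 93 and 43 reads and shares of 55.4% ± 23.3 and 56.0% ± 20.2 (SD, n = 6 each). EGR1 had 36 reads under drop-out, 52.8% of them converted when pooled, and 37 under improved handling, 83.8% of them converted. FOS, the partner that forms the classical AP-1 dimer with JUN, had 20 reads over the 18 libraries and none in 9 of them, so no share is given.

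The percent of new RNA was then estimated. A mixture of old and new reads, fitted from the number of T-to-C mismatches and T positions in each read, put 91.8% ± 4.46 of JUN RNA as new under drop-out and 76.7% ± 6.22 under improved handling (SD, n = 6 each). JUND stood at 42.2% ± 3.85 and 39.0% ± 3.07, and KLF10 at 97.3% ± 2.43 and 93.7% ± 4.70. In 2 of the 6 labelled drop-out libraries, the replicates 2 with iodoacetamide and with OsO4, the KLF10 estimate ended at its upper limit, so the mean and SD under drop-out include values set by that limit. IER5 had 68.5% ± 15.2 and 81.1% ± 11.2, and IER2 69.9% ± 17.9 and 68.4% ± 10.1. Over all genes the estimate was 13.5% ± 2.84 and 27.4% ± 2.79. The mutation rate fitted for new reads was 5.41% ± 1.16 of T positions under drop-out and 7.32% ± 1.58 under improved handling. The range of JUN was 85.2% to 96.8% under drop-out and 69.1% to 83.5% under improved handling, without overlap. Each estimate used the rate fitted over all genes of its library, so the JUN difference rests on that rate as well as on JUN reads. The converted shares of JUN, 66.0% and 62.8%, overlapped in range, and the part of the rate was not tested.

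Degradation rate constants (kdeg) in the authors' deposited table covered JUN and JUND and none of the other 6 genes. In the authors' deposited table JUN had a kdeg of 1.04 under drop-out and 0.668 under improved handling with the NaIO4 chemistry, a log2 change of -0.63 (adjusted p = 0.00867). With iodoacetamide the authors' deposited table gave 1.09 and 0.547, a change of -0.98 (adjusted p = 2.94e-04), and with the OsO4 chemistry 1.02 and 0.563, a change of -0.85 (adjusted p = 0.00253). JUN was lower under improved handling in each chemistry. The authors' deposited table called 15 of 2209, 23 of 1600 and 10 of 2262 transcripts lower in these chemistries, in this order, and its median log2 change was 1.18, 1.14 and 1.19. JUND stood in the authors' deposited table at 0.277 and 0.271, 0.312 and 0.218, and 0.293 and 0.197 (adjusted p = 0.952, 0.207 and 0.154). In the authors' deposited table the drop-out constant of JUN ranked 4th of 2209, 2nd of 1600 and 3rd of 2262 from the top, and the improved one 17th, 8th and 19th. The time unit of these constants is not stated. The percent of new RNA above corresponds to 1.31 ± 0.289 and 0.744 ± 0.133 per h for JUN and to 0.275 ± 0.0339 and 0.248 ± 0.0247 per h for JUND (SD, n = 6 each), computed from the counts on the assumption of steady levels. Labelled libraries held less JUN than unlabelled ones (log2 change -0.65 under drop-out and -0.85 under improved handling), and whether its level was steady was not tested.

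**Figure D3:**
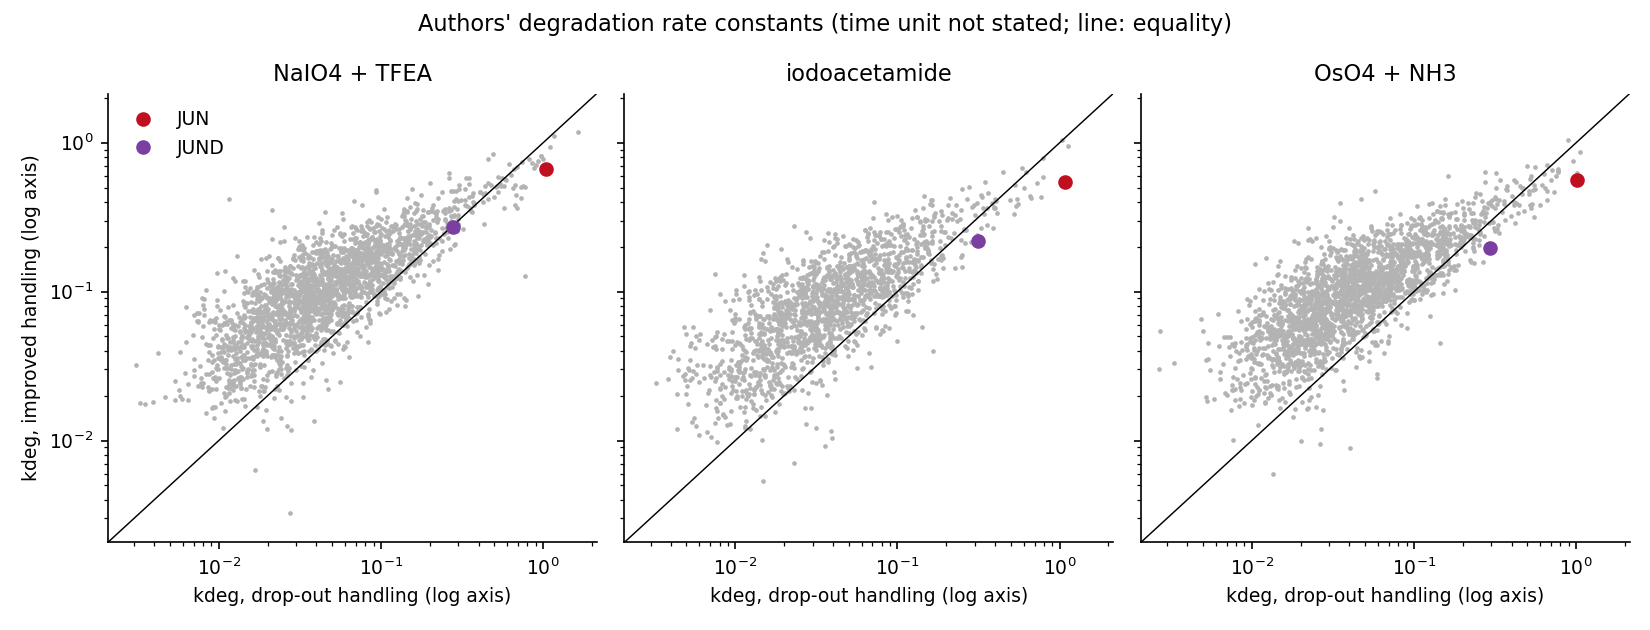
Rate constants from the authors' deposited table, improved against drop-out handling on log axes with no stated time unit, one panel per chemistry, one grey point per transcript, and a line of equality. JUN (red) lay below the line in each panel, from 0.668 improved against 1.04 drop-out with the NaIO4 chemistry to 0.547 against 1.09 with iodoacetamide. JUND (purple) was also below it, but almost on it with the NaIO4 chemistry (0.271 against 0.277).

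Of the wider pathway list, the authors' deposited table held ATF4, 1 of 12 possible AP-1 partners, with a kdeg called higher under improved handling in 3 of 3 chemistries (log2 change 1.28 to 1.81, adjusted p at most 7.71e-08). Over all transcripts the authors' deposited table called 1162 of 2209, 782 of 1600 and 1089 of 2262 higher, in the order above. It held 2 of 32 other immediate-early genes, PPP1R15A, a stress-induced phosphatase subunit, and SRF, serum response factor. None of the 4 entries of these 2 genes was called in the authors' deposited table, and the log2 change of PPP1R15A was -0.23 with the NaIO4 and -0.24 with the OsO4 chemistry, and that of SRF was 0.86 and -0.20. Among upstream kinases and factors reported here are MAPK3, a growth-signal kinase, and ELK1, a partner of serum response factor, and MAPK3 was called higher in the authors' deposited table with iodoacetamide only (log2 change 1.42, bakR adjusted p = 0.0454), among 3 chemistries. In the authors' deposited table the order of kdeg under improved handling with the NaIO4 chemistry was PPP1R15A (0.813), JUN (0.668), ATF4 (0.361), SRF (0.271) and JUND (0.271), and MAPK3 was the slowest of these at 0.0351. The genes with the converted share most like that of a member over the 12 labelled libraries were ENSG00000163125 for JUN (root mean square difference 5.05 points) and ENSG00000198804 for JUND (3.14 points).

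The handling comparison of levels asked how the scaled counts of each gene differed between the protocols. Such counts are relative within a library and do not measure how much RNA a protocol returned. Under improved handling JUND, JUNB, IER2 and IER5 fell and KLF10 rose in the labelled libraries, while JUN and EGR1 were not called; the JUN and IER5 results changed with the scaling, as given below. Of the 7 members tested (FOS had too few reads), 4 were lower and 1 was higher at an adjusted p of 0.05 in edgeR's quasi-likelihood test. Over all 12449 genes 33.9% were lower and 46.7% were higher, so calls were common. How many of all genes had handling ranges without overlap was not counted, so lack of overlap below is not a trait particular to a member. The median log2 change was -0.90 over the 7 members and 0.44 over all genes. By library size alone, an alternative added after the values had been seen, 3 members were lower and 2 were higher, against 24.3% and 56.2% of all genes, and the median over all genes moved from 0.44 to 0.995. Values are exonic counts per library size after edgeR's TMM composition factors (CPM); by library size alone a labelled value would be 0.743 to 0.876 times as high under drop-out and 1.14 to 1.23 times as high under improved handling. Reads naming no gene, which were left out, made up 32.7% to 41.5% of a drop-out library and 17.5% to 25.7% of an improved one, without overlap, and their part in the changes of level was not tested. In these counts antisense neighbours cannot be told apart, since use of strand in the counting is not stated. In such bulk RNA, fewer cells expressing a gene and less RNA per cell cannot be told apart.

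JUND was at 179 to 302 CPM (median 227) in the labelled drop-out libraries and 63.9 to 101 (median 80.6) in the improved ones. Every improved library lay below every drop-out library. The log2 change was -1.53 (standard error 0.144, adjusted p = 2.63e-09, edgeR), and it was -1.67, -1.24 and -1.67 by chemistry in the order above. With library size alone it was -0.96 (edgeR adjusted p = 2.18e-06). In the unlabelled libraries JUND was at 278, 324 and 292 CPM under drop-out and 92.5, 91.9 and 101 under improved handling, a log2 change of -1.64 (standard error 0.20, edgeR adjusted p = 2.78e-07). JUND thus fell in RNA with and without s4U, and the difference between these changes was 0.11 (95% interval -0.36 to 0.59, a description).

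JUNB was at 7.89 to 16.6 CPM (median 14.6) under drop-out against 2.52 to 4.85 (median 4.07) under improved handling, without overlap, a log2 change of -1.88 (standard error 0.353, adjusted p = 4.60e-05, edgeR). IER2 was at 41.7 to 73.5 CPM (median 52.9) against 24.3 to 32.1 (median 25.6), also without overlap, a log2 change of -1.06 (standard error 0.176, edgeR adjusted p = 1.07e-05). IER2 changed by -0.50 (edgeR adjusted p = 0.0111) with library size alone, and its ranges, 33.8 to 56.9 and 27.7 to 38.0, overlapped. IER5 was at 45.5 to 93.9 CPM (median 58.5) against 27.3 to 48.8 (median 41.0), where the ranges overlapped, a log2 change of -0.70 (standard error 0.173, edgeR adjusted p = 8.83e-04). It was called with the NaIO4 chemistry (-1.09, edgeR adjusted p = 0.00250). It was not called with iodoacetamide (-0.56, edgeR adjusted p = 0.120) or the OsO4 chemistry (-0.45, edgeR adjusted p = 0.199). By library size alone the IER5 change was -0.14 (edgeR adjusted p = 0.456), and in unlabelled libraries -0.20 (adjusted p = 0.457). Each unlabelled group held 1 library, so the spread behind every p for unlabelled libraries came from the labelled pairs. Leaving out an unlabelled library therefore took its whole chemistry out of the unlabelled contrast, which was then the mean of the other chemistries. In the unlabelled libraries the changes were -1.67 for JUNB (edgeR adjusted p = 0.00297), -1.39 for IER2 (adjusted p = 1.95e-05) and -0.64 for IER5 (adjusted p = 0.0176), where 30.7% of all genes were lower and 41.4% higher. Without the unlabelled improved iodoacetamide library the JUNB change was -1.23 (edgeR adjusted p = 0.0575), and without the unlabelled improved OsO4 library the IER5 change was -0.58 (adjusted p = 0.0734). DESeq2 gave an adjusted p of 0.0697 for IER5 there.

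KLF10 was at 25.0 to 35.4 CPM (median 28.7) in the labelled drop-out libraries and 74.9 to 112 (median 81.1) in the improved ones. Every improved library lay above every drop-out library, and the log2 change was 1.53 (standard error 0.157, adjusted p = 8.61e-09, edgeR), with 1.44, 1.60 and 1.56 by chemistry. In the unlabelled libraries KLF10 was at 54.9, 63.1 and 66.5 CPM against 88.7, 80.7 and 87.0, a log2 change of 0.48 (standard error 0.20, edgeR adjusted p = 0.0388). That call was lost with DESeq2 (adjusted p = 0.0738) and in 16 of 18 fits that left out 1 library. Where that library was unlabelled, its chemistry left the contrast. The value was -0.17 with intronic reads included and 0.92 by library size alone (edgeR adjusted p = 3.18e-04). A difference between the labelled and unlabelled handling changes was called for 0 of 12449 genes (adjusted p under 0.05, edgeR), so not for KLF10. A missed call does not show that the changes were alike.

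JUN was at 254 to 404 CPM (median 348) in the labelled drop-out libraries and 304 to 411 (median 369) in the improved ones, which overlapped. By library size alone the ranges were 213 to 310 and 372 to 480, without overlap. The log2 change was 0.09 (standard error 0.131, 95% interval -0.17 to 0.35, adjusted p = 0.532, edgeR). By library size alone it was 0.66 (edgeR adjusted p = 4.73e-05), below the median of all genes in that fit (0.995). Its sign turned in 5 of 18 fits that left out 1 library. With intronic reads included it was -0.61 (edgeR adjusted p = 0.00188), with 141 intronic and 13965 exonic JUN reads in all libraries. Other members also stood lower in that fit than in the main one. JUND was at -2.23 against -1.53, JUNB at -2.60 against -1.88, and IER2 at -1.69 against -1.06. IER5 was at -1.39 against -0.70 and EGR1 at -1.52 against -0.90. KLF10, still higher under improved handling, was at 0.84 against 1.53. That fit was scaled anew on all reads of 15397 genes, and the part of the scaling was not tested. Among reads without a mismatch the JUN change was 0.55 (edgeR adjusted p = 0.00698). This fit was also scaled anew, and its median over 11761 genes was 0.51, close to the JUN value. In the unlabelled libraries JUN was at 510, 497 and 582 CPM against 712, 567 and 667, a log2 change of 0.29 (edgeR adjusted p = 0.158), or 0.73 by library size alone (adjusted p = 5.77e-04), and it was -0.38 with intronic reads included. EGR1 was at 1.32 to 8.36 CPM against 0.63 to 5.47 in labelled libraries, a log2 change of -0.90 (standard error 0.533, edgeR adjusted p = 0.124). Without replicate 1 of the labelled drop-out iodoacetamide group the EGR1 change was -1.22 (adjusted p = 0.0303, edgeR).

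**Figure D4:**
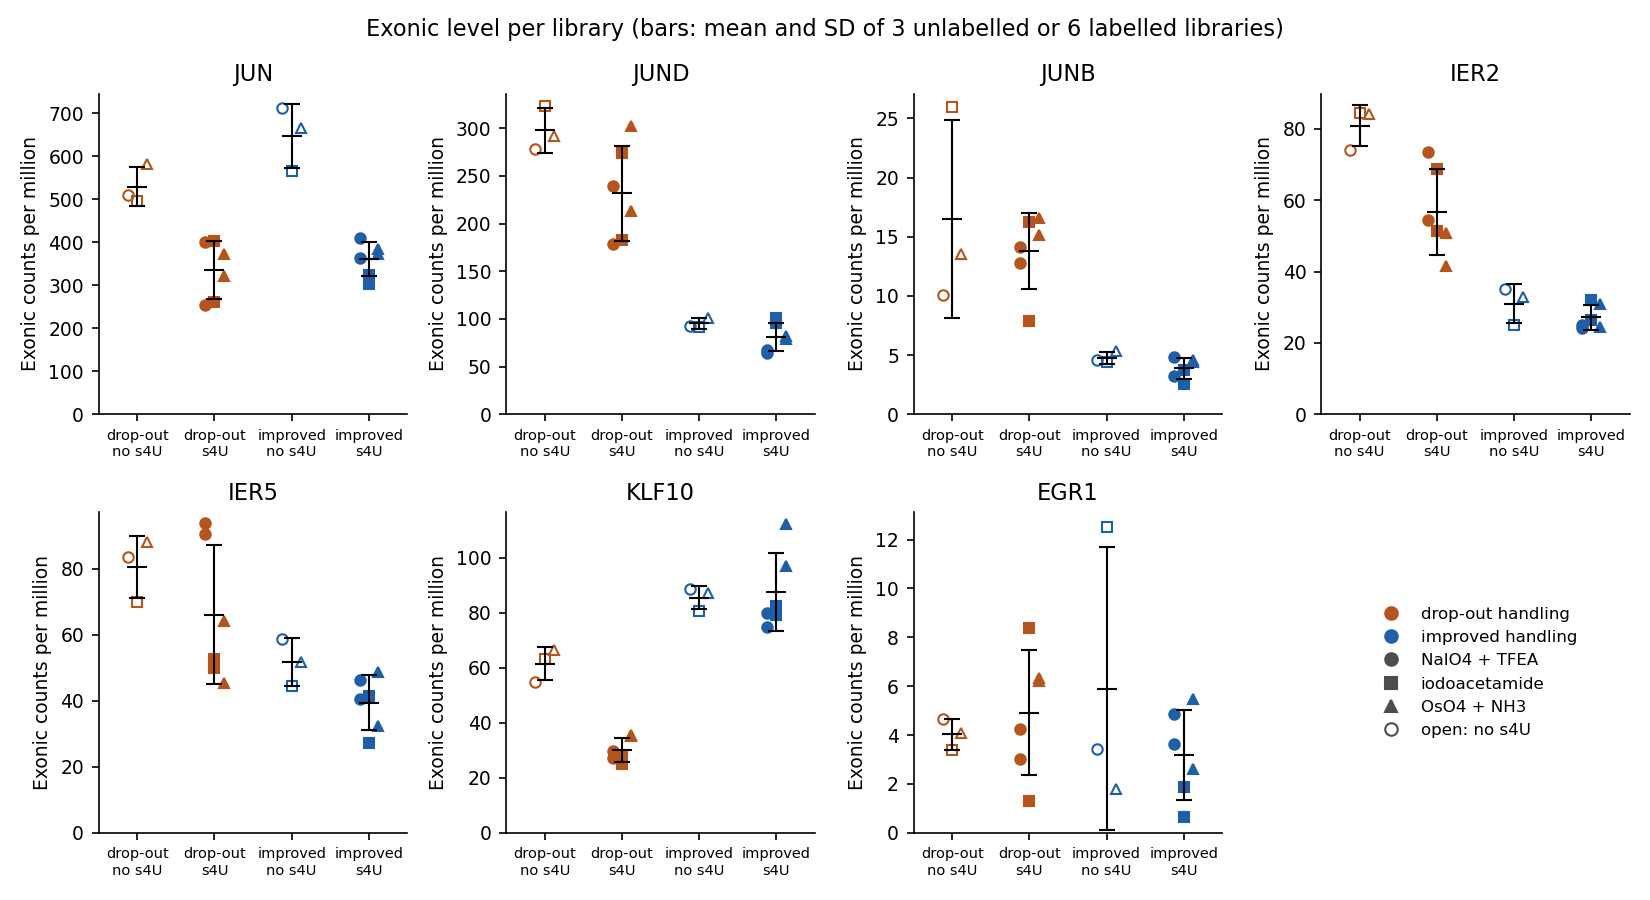
Scaled exonic counts (CPM) for 7 genes, one point per library, by handling and label, with chemistry as marker shape and the mean and SD as bars. On this TMM scale JUND, JUNB and IER2 under improved handling lay below every drop-out library of the same label, while labelled JUN libraries spanned 254 to 404 and 304 to 411. Of all 12449 genes, 33.9% were called lower in labelled libraries, and how many lay apart in this way was not counted.

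T content moved with these changes. A read of the median gene covered 37.0 T positions in the unlabelled libraries (11546 genes), against 18.9 for JUNB, 21.5 for JUND, 24.7 for IER2, 26.2 for JUN, 26.3 for IER5 and 29.5 for EGR1, while KLF10 had 38.8. JUNB, JUND, IER2, JUN and IER5 lay in decile 1 of genes by T positions, whose median log2 change was -1.49 in labelled and -1.37 in unlabelled libraries (1155 genes). In labelled libraries JUND (-1.53) and JUNB (-1.88) lay below that median, and IER2 (-1.06), IER5 (-0.70) and JUN (0.09) lay above it. In unlabelled libraries IER2 (-1.39) was also just below the median, with JUND (-1.64) and JUNB (-1.67), and IER5 (-0.64) and JUN (0.29) were above it. KLF10 lay in decile 7, above its median in labelled libraries (1.53 against 1.13) and below it in unlabelled ones (0.48 against 1.23). EGR1, with few reads, lay in decile 2, above its median in labelled (-0.90 against -1.24) and unlabelled libraries (0.09 against -1.17). Across genes, which are not independent, Spearman's rho between T positions and the change was 0.68 in labelled and 0.66 in unlabelled libraries. These values were looked at after the changes had been seen, and the part of T content in them was not tested.

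Labelled libraries held less JUN than unlabelled ones under both handlings. The log2 change, labelled minus unlabelled, was -0.65 (standard error 0.158) under drop-out and -0.85 (standard error 0.153) under improved handling, against medians over all genes of 0.08 and -0.03. No labelled JUN library reached an unlabelled one of the same handling. KLF10 stood at -1.03 (standard error 0.198) under drop-out and 0.02 (standard error 0.163) under improved handling. JUND was at -0.36 and -0.24, IER2 at -0.51 and -0.18, and IER5 at -0.32 and -0.38. With fewer reads, JUNB was at -0.11 (standard error 0.393) and -0.33 (standard error 0.438), and EGR1 at 0.34 (standard error 0.668) and -0.65 (standard error 0.595). Leaving out 1 library moved the values of JUND, IER2 and, under drop-out, IER5 by over 1.5 times, and turned the sign of KLF10 under improved handling, which was -0.10 without the unlabelled OsO4 library and 0.13 without the unlabelled NaIO4 library. Where the library left out was unlabelled, its chemistry left the contrast of that handling, and the mean was over the other chemistries. Under drop-out IER2 ran from -0.66 to -0.23 and IER5 from -0.56 to -0.04. Both were lowest without the unlabelled NaIO4 library and highest without the unlabelled OsO4 library. JUND ran from -0.39 to -0.16, highest without replicate 1 of the labelled iodoacetamide group. Under improved handling IER2 ran from -0.38 to -0.0050 and JUND from -0.41 to -0.12. Both were lowest without the unlabelled iodoacetamide library and highest without the unlabelled NaIO4 library.

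The reads were then split by whether they carried a mismatch. Reads of JUN without a mismatch were at 68.4 to 178 CPM (median 112) in labelled drop-out libraries and 101 to 166 (median 131) in improved ones, against 488 to 574 and 544 to 697 in unlabelled libraries. On the same TMM scale converted JUN reads were at 219 ± 31.6 CPM under drop-out and 227 ± 39.3 under improved handling (SD, n = 6 each). For KLF10, converted reads were at 23.2 ± 4.89 CPM under drop-out and 74.5 ± 15.9 under improved handling, while unconverted reads were at 6.81 ± 1.93 and 13.0 ± 4.11. The higher KLF10 level under improved handling was mostly converted reads, which already made up 76.9% of KLF10 reads under drop-out handling. A rise of both kinds in proportion would also be mostly converted reads. Its unconverted reads were higher as well, and its difference in share had an exact permutation p of 0.0648.

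**Figure D5:**
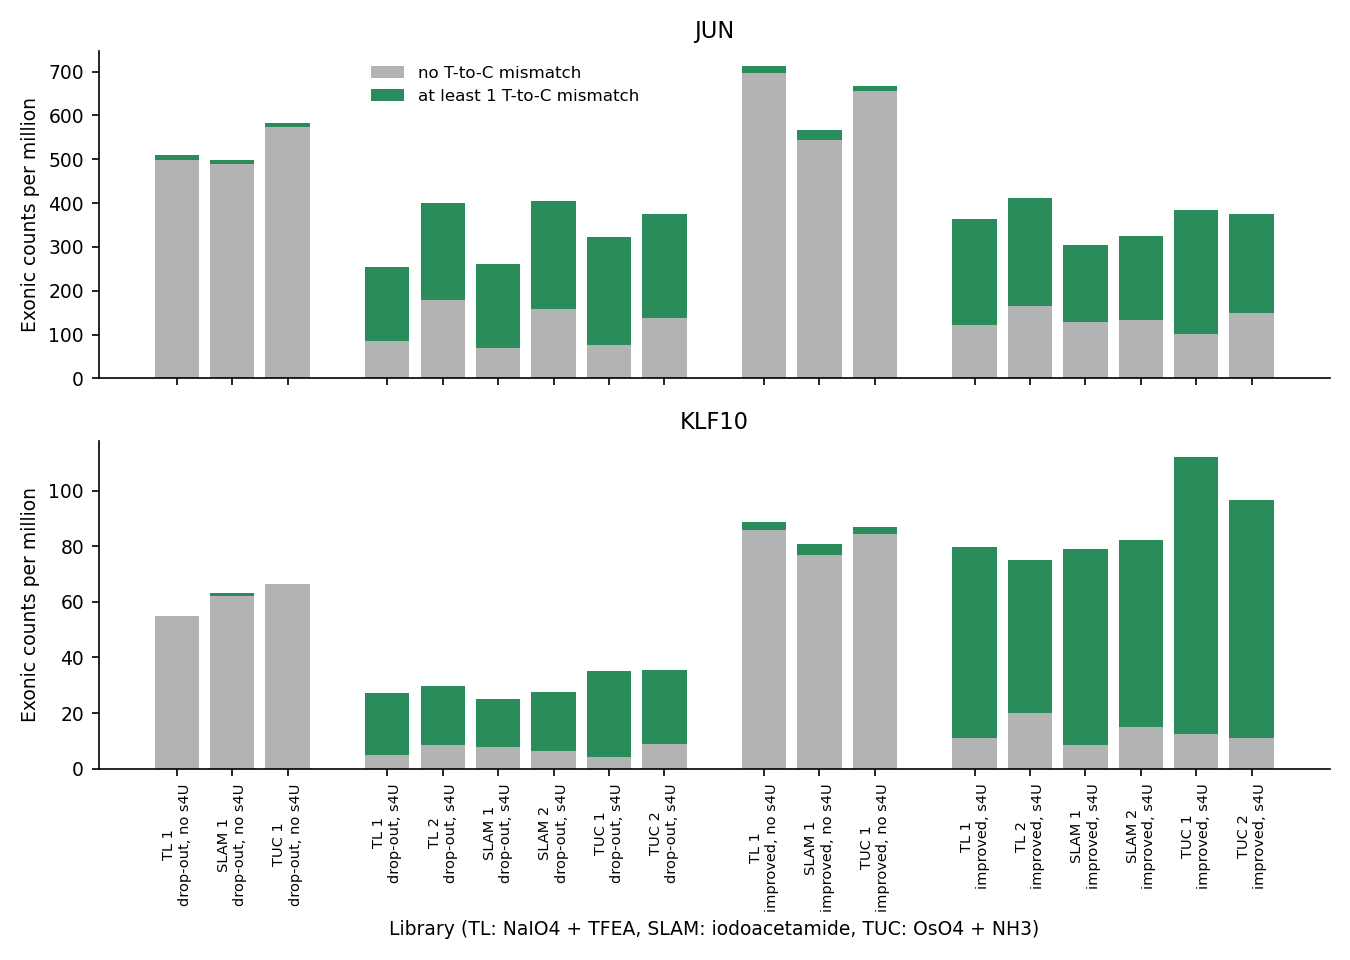
Scaled exonic counts (CPM) of JUN and KLF10 in each of the 18 libraries, split into reads without (grey) and with (green) a T-to-C mismatch. Converted JUN reads averaged 219 and 227 CPM under drop-out and improved handling, and converted KLF10 reads 23.2 and 74.5.

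Libraries of the same labelled group differed by more than read sampling, with a chi-square over its degrees of freedom of 2.13 to 8.68 across genes. In 5 of 6 labelled groups the library numbered 1 had a higher JUN share than the library numbered 2, and in 5 of 6, not all the same groups, it had a lower JUN level, for example 73.9% and 262 CPM against 60.7% and 404 CPM in the drop-out iodoacetamide group. The share of the median gene was higher in the library numbered 1 in 6 of 6 groups, 12.3% against 8.91% in that one, and so was the fitted mutation rate of new reads. The part of this in the comparisons above was not tested beyond the fits with the replicate number as a block.

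The aligner and its settings code moved the converted share of JUN and JUND in the same libraries. Against HISAT-3N, an aligner that tolerates T-to-C mismatches, HISAT2 with the settings code D changed JUN reads by -8.57% ± 4.97 and the share by -6.24 ± 1.12 points (SD, n = 12), lower in 12 of 12 libraries. HISAT2 with code VL gave 11.8% ± 3.76 more JUN reads and a share 4.91 ± 2.17 points higher, in 12 of 12. STAR with code D gave 9.58% ± 3.56 more JUN reads and a share changed by -0.81 ± 1.06 points, lower in 10 of 12. The JUND share was 13.3 ± 2.33 points higher under HISAT2 VL (SD, n = 12), in 12 of 12, at 42.5% against 29.1% with HISAT-3N. With the same aligner it was lower at code D (-3.10 points) and at ML (-1.11 points), and with STAR it was 0.52 to 0.56 points higher. In unlabelled libraries 6.90% to 11.3% of all exonic reads were converted under HISAT2 VL, against 2.56% to 3.57% with HISAT-3N. The labels do not define the settings codes.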

How the data were processed

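RNA of 18 libraries was extracted with Trizol, treated with DNase, converted and made into stranded total-RNA libraries, per the labels' protocols. Tools listed in the submitters' processing notes are cutadapt, HISAT2, STAR, HISAT, Picard, HTSeq and DESeq2, with the build GRCh38 and no versions or roles. The authors deposited counts of reads per library, aligner, settings code, gene and intronic status, split by how many T-to-C mismatches and T positions a read held, which are other whole-number values of the deposited table. The authors also deposited, per the labels, bakR rate constants with a log2 change (improved over drop-out) and an adjusted p-value. How that p-value was adjusted is not given in the sources used here. Another 10 samples, of 5 other chemistries, were not analysed here.

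Exonic reads of the HISAT-3N alignment were used. Counts were fitted over all 12 groups with edgeR 4.0.16 (filterByExpr, TMM, quasi-likelihood test, Benjamini-Hochberg over 12449 genes) in R 4.3.3. The converted share was fitted as log2 odds in edgeR with a term per library, for genes that had 50 or more exonic reads in all 12 labelled libraries, and single genes had a two-sided exact permutation test within chemistry. DESeq2 1.42.0 was an alternative. Reads naming no gene (32.7% to 41.5% of a drop-out library and 17.5% to 25.7% of an improved one) were left out. Wilson intervals cover counting error only, since reads carry no molecular identifiers here. On simulated counts the handling fit recovered 187 of 187 genes changed by 2 on the log2 scale with 10 false calls among 11530 genes, and the share fit recovered 157 of 200 genes changed by 1, with 7 false calls among 1992. Both simulations changed a minority of genes, evenly up and down. In the data 80.6% of genes were called in labelled counts and 82% in the share, so these figures do not give the error rates there. The named genes are all 8 members, the gene most like JUN and the one most like JUND in share, and fixed lists of AP-1 partners, other immediate-early genes and upstream factors. Members and lists were chosen with earlier results of these data known. A gene of the upstream list is not reported here.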

Additional observations from a re-analysis of the deposited data

How the results depend on the processing

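JUND, JUNB, IER2 and KLF10 kept their direction and call in labelled libraries under each alternative run. The count of members called lower was 3 by library size alone, where 24.3% of all genes were lower. It was 6 with intronic reads included, where 12278 of 15397 genes were called in either direction, and lay between these otherwise. Sizes moved more: with intronic reads included and by library size alone, KLF10 was at 0.84 and 2.09, IER2 at -1.69 and -0.50, IER5 at -1.39 and -0.14, JUND at -2.23 and -0.96, and JUNB at -2.60 and -1.32. By library size alone, added after seeing the data, JUN was called higher (0.66) and IER5 was not called, so 2 members were higher in labelled and 2 in unlabelled libraries (56.2% and 48.5% of all genes were), and the label change of KLF10 under drop-out was -1.14. JUN changed sign there with no filter on low counts (-0.021), with HISAT2 VL (-0.038) and with intronic reads included (-0.61), and leaving out 1 library gave -0.14 to 0.12. With reads lacking a mismatch, 2 members were called higher in labelled libraries, where 9295 of 11761 genes were called in either direction. In unlabelled libraries the 1 higher call (KLF10) became 0 with DESeq2's Wald test, no filter, intronic reads included, reads lacking a mismatch and each of the 6 other alignments, and was 0 to 1 on leaving out 1 library. With intronic reads included, unlabelled KLF10 stood at -0.17, JUN at -0.38 and EGR1 at -0.67. EGR1 was also negative with HISAT2 D (-0.24), ML (-0.24) and VL (-0.30) and with STAR D, ML and VL (-0.16 each). It ran from -0.88 to 0.71 on leaving out 1 library. An unlabelled library left out took its chemistry out of the unlabelled contrast and of the label contrast of its handling. In labelled libraries EGR1 was called with intronic reads included (-1.52), HISAT2 D (-1.46) and ML (-1.37). The label change of KLF10 under drop-out handling was -0.94 with no filter, -2.93 with reads lacking a mismatch, -1.45 with HISAT2 D, -1.28 with ML, and -1.14, -1.13 and -1.13 with STAR D, ML and VL (-1.08 to -0.85 on leaving out 1 library). Under improved handling it was -2.03 with reads lacking a mismatch, -0.32 with HISAT2 D and -0.10 with ML (-0.10 to 0.13 on leaving out 1 library). With reads lacking a mismatch, the label change under drop-out and improved handling was -1.88 and -1.60 for JUN, -1.21 and -0.58 for IER2, and -1.02 and -1.13 for IER5. That setting leaves out converted reads, on average 66.0% and 62.8% of JUN reads in labelled libraries and at most 3.97% in unlabelled ones. A lower label change of such genes, KLF10 included, is therefore built into it. In the converted share, 1 of 4 members tested was called at a minimum of 20 reads (IER5; 70.6% of 4084 genes were called), and the log2 odds of JUN were 0.035 when 2 mismatches were required. Minus the median gene, the share differences were -14.2 points for JUN, -10.4 for JUNB, -9.72 for JUND, -5.99 for IER2, -3.21 for KLF10 and 2.95 for IER5. Leaving out 1 library gave -0.11 to 2.69 points for JUND and -3.03 to 13.1 for IER2. Apart from what leaving out converted reads builds in, the cause of these changes was not tested. Across genes, deviations of same-numbered libraries were uncorrelated in level (-0.00099 to 0.00384) and nearly so in log2 odds of conversion (0.00629 to 0.0257), under the 0.1 set for pairing, although the share of the median gene was higher in the library numbered 1 in 6 of 6 groups. With the replicate block 4 members were lower and 1 higher (9843 of 12449 genes were called), JUN stood at 0.11, and the share test called 0 of 2 members (1712 of 1992 genes were called), with log2 odds of -0.18 for JUN and 0.09 for JUND. Few reads limit JUNB, EGR1 and FOS most: the Wilson interval of a JUNB share reached 44.9 points from its value.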
